A study of Mus musculus with 18 samples.

Results

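The genes described here are the immune surface, major histocompatibility complex (MHC), chemokine and interferon genes of the array. They were chosen by symbol alone: every gene whose platform symbol begins with H2-, Ccl, Ccr, Cxcl, Cxcr, Irf, Ifi, Ifit, Tlr, Fcgr, Il followed by a digit or Cd followed by a digit, Cd36 left out, with a value on at least 9 of the 18 arrays. Of 10225 genes with a symbol of their own on the platform, 114 carried such a symbol and 82 of these had enough values. No measured ratio entered this rule. The classes also follow the prefix alone, and names such as CD antigens or interferon-induced genes need not describe every gene in them. The 82 genes comprised 32 CD antigens, 14 interleukins and interleukin receptors, 10 interferon-induced genes, 8 chemokines, 7 genes of the interferon regulatory factor prefix, 4 MHC genes, 3 Toll-like receptors, 3 genes of the Fc gamma receptor prefix and 1 chemokine receptor. The remaining 32 symbols, among them Cd4, Cd14, Ccr2, Ccr7, H2-DMa, Irf5 and Il33, had too few values and were not analysed here.

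The study measured gene expression in mouse hearts on 2-colour cDNA microarrays, with heart cDNA of male mice in Cy5 and of female mice in Cy3 on the same slide. Control hearts, hearts under chronic constant hypoxia (CCH) and hearts under chronic intermittent hypoxia (CIH) were taken at 1, 2 and 4 weeks, with 2 arrays in each of the 9 groups. Strain, age, oxygen level and cycle length are not given in the labels, nor is whether a channel held 1 animal or a pool. A value is the log2 ratio of the male to the female channel with the array's median set to 0, so that 0 means the same ratio as the typical spot, -1 means 2-fold less signal in the male channel and 1 means 2-fold more. Sex and dye cannot be told apart in a ratio set against 0, because the dyes were never swapped. Setting conditions against each other shows a different ratio and leaves unsaid in which sex a level moved. In these bulk samples fewer cells of a type and less RNA per cell cannot be told apart. A ratio holds no level, so the presence of heart muscle or of any leukocyte could not be checked as a level.

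By way of background, MHC class II molecules hold peptides on the surface of dendritic cells, B cells and macrophages for recognition by CD4 T cells. Chemokines guide leukocytes into tissue, Toll-like receptors sense microbial and cell-derived ligands, and Fc receptors bind the constant part of antibodies. Interferon regulatory factors carry the signals of these sensors to genes that interferon then induces, such as the IFITM proteins, which hinder the entry of viruses into cells. The CD numbers name surface proteins of many kinds, and in the heart several are found on endothelium, stroma or red cells as well as on leukocytes.

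The ratio was taken as male over female because Eif2s3y, a Y-linked gene, was above 0 on 17 arrays (1.00 to 2.28). On CIH 4 weeks replicate 1 Eif2s3y was at -0.03, while Kdm6a, an X-linked gene that is more active in females, was at -0.68 there. Kdm6a was below 0 on every array but CCH 4 weeks replicate 1, where it was at 0.28 and Eif2s3y at 1.16. CIH 1 week replicate 1 is named 1 week of CIH by its title and 2 weeks of CCH by its source names, and it was grouped by its title. On control 1 week replicate 1 the median of 3 lung markers (Sftpb, Sftpc and Scgb1a1) was -0.84, the lowest of the 6 control arrays, and several lymphocyte genes described below stood far under 0. The lung marker median was lower still, at -2.44, on CIH 4 weeks replicate 2. Of the 3 lung markers only Sftpb could be tested. Its mean was 0.04 on the control arrays and -0.19 on the CIH arrays, with no call. Results are also given without CIH 4 weeks replicate 1, CIH 1 week replicate 1 and control 1 week replicate 1, the 3 doubted arrays. Control 2 weeks replicate 1, CCH 4 weeks replicate 1 and CIH 4 weeks replicate 2 were not among the doubted arrays. The number of spots with a value fell from between 20489 and 24512 at 1 week to between 15802 and 19720 at 2 weeks and between 12650 and 17904 at 4 weeks, and the number of the 82 genes with a value went from 79 to 82 down to 66 to 79 and 58 to 81. The spread of ratios (median absolute deviation) was widest on CCH 4 weeks replicate 1 at 0.72 and on CIH 2 weeks replicate 2 at 0.62. These 2 arrays also held the lowest value of 16 and of 13 of the 66 tested genes.

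Promoters were read for the genes on which the results turn, from the RefSeq promoter table (build GRCm38.p6, the 250 bases before and 50 after the annotated start, 5′ to 3′ on the gene's strand). The table held 65 of the 82 genes. Ifitm3 (chr7:141010695-141010994, minus strand) and Ifitm2 (chr7:140955912-140956211, minus strand) are shown because both had ratios below 0 and because interferon acts on genes through the interferon-stimulated response element, here searched on both strands as GAAA, any 2 bases and GAAA, and written in capitals.
Ifitm3: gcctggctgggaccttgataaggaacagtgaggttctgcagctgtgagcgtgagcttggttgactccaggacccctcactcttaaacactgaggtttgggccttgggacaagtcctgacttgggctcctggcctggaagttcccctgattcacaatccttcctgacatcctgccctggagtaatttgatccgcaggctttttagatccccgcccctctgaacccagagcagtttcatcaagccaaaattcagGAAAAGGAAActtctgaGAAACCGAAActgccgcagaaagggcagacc
Ifitm2: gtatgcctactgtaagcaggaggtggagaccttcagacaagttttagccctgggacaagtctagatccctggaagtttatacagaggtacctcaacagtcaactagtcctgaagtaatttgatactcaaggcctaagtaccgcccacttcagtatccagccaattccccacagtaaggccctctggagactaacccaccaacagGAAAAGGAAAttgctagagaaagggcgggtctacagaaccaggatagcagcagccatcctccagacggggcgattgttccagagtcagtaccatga
The Ifitm3 window held 2 matches, both just after the start, and the Ifitm2 window 1 match before it. A match was found in 3.49% of all 27025 promoters, against 5 of the 65 windows of the genes described here (7.69%), namely Ifitm3, Ifitm2, Ifi214, Cd59a and Cd300c2.

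The class II promoters of H2-Aa (chr17:34287774-34288073, minus strand) and H2-Eb1 (chr17:34305617-34305916, plus strand) are shown because both were low and high on the same control arrays. Class II promoters are known for a conserved CCAAT box read in reverse, and the capitals mark CCAAT on either strand.
H2-Aa: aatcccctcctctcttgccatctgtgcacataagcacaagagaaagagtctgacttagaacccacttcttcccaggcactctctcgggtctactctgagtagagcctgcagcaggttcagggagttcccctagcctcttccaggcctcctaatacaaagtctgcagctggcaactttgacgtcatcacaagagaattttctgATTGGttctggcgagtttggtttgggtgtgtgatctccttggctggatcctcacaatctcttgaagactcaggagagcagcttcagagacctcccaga
H2-Eb1: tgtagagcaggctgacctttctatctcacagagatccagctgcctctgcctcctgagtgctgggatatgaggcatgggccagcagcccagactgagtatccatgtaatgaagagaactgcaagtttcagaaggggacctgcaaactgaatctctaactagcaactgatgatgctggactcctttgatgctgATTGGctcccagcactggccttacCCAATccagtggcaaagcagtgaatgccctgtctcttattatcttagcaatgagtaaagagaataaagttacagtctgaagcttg
H2-Aa held 1 reversed match and H2-Eb1 held 1 in each direction. The box is common, at 37.9% of all promoters and 16 of the 65 windows. The promoters of Fcgr1 (chr3:96293920-96294219, minus strand) and Cd53 (chr3:106790100-106790399, minus strand), leukocyte genes with ratios below 0, follow with the PU.1 core GAGGAA of either strand in capitals. PU.1 is a transcription factor of myeloid and B cells.
Fcgr1: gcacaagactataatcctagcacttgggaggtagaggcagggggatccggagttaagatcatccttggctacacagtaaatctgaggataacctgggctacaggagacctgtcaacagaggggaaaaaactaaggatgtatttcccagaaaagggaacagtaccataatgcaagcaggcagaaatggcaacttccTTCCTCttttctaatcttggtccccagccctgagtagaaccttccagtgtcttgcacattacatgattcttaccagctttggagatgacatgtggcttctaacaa
Cd53: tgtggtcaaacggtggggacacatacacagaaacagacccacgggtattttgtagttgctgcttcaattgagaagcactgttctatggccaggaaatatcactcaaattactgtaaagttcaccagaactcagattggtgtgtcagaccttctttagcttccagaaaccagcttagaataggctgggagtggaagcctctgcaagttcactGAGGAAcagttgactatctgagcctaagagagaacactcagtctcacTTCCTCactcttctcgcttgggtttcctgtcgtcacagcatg
Fcgr1 held 1 match and Cd53 held 2, and the core was found in 28.3% of all promoters and in 23 of the 65 windows. A match describes these letters and is not a measured binding site.

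The first question was whether these genes differed between the male and the female channel over all arrays. More of them lay below 0: 48 of the 66 genes that could be tested (72.7%) had a mean ratio below 0, against 59.3% of all 10272 genes and unnamed spots tested, and their median was -0.13 against -0.04. By limma with Benjamini-Hochberg adjustment over all 10272, 21 of 66 (31.8%) passed an adjusted p of 0.05. The background was 27.7% of everything tested, so the share of calls was near it. In the direction below 0 there were 19 genes (28.8%, background 18.7%), and above 0 there were 2 (3.03%, background 8.99%). No gene of the 66 had the same sign on every array, where 0.604% of everything tested did. Without the 3 doubted arrays 10 passed, with 12.7% of everything tested. These 10 were Cd151, Cd300lg, Cd34, Cd44, Cd53, Cxcl12, Fcgr1, Fcgrt, Ifitm3 and Il12b. The heat map shows all values.

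By class, the median ratio over all arrays was -0.30 for the 3 Fc gamma receptor genes, -0.21 for the 4 MHC genes, -0.18 for the 6 tested chemokines and the 8 tested interferon-induced genes, and -0.13 for the 27 tested CD antigens. It was -0.07 for the 6 tested genes of the interferon regulatory factor prefix, -0.03 for the 10 tested interleukins and receptors, and 0.04 for the 2 tested Toll-like receptors. On the CCH arrays alone the medians of the Fc gamma receptor, interferon-induced, MHC, chemokine and CD classes were -0.43, -0.33, -0.32, -0.27 and -0.22. On the control arrays they were -0.15, -0.10, -0.25, -0.05 and -0.06, and on the CIH arrays -0.29, -0.14, -0.05, -0.14 and -0.11. The medians of everything tested were -0.05, -0.02 and -0.04 in CCH, control and CIH. By array, the Fc gamma receptor median was at -0.53 and -0.59 on the CCH arrays of 1 week, at 0.10 and -0.02 at 2 weeks and at -0.55 and -0.48 at 4 weeks.

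**Figure D1:**
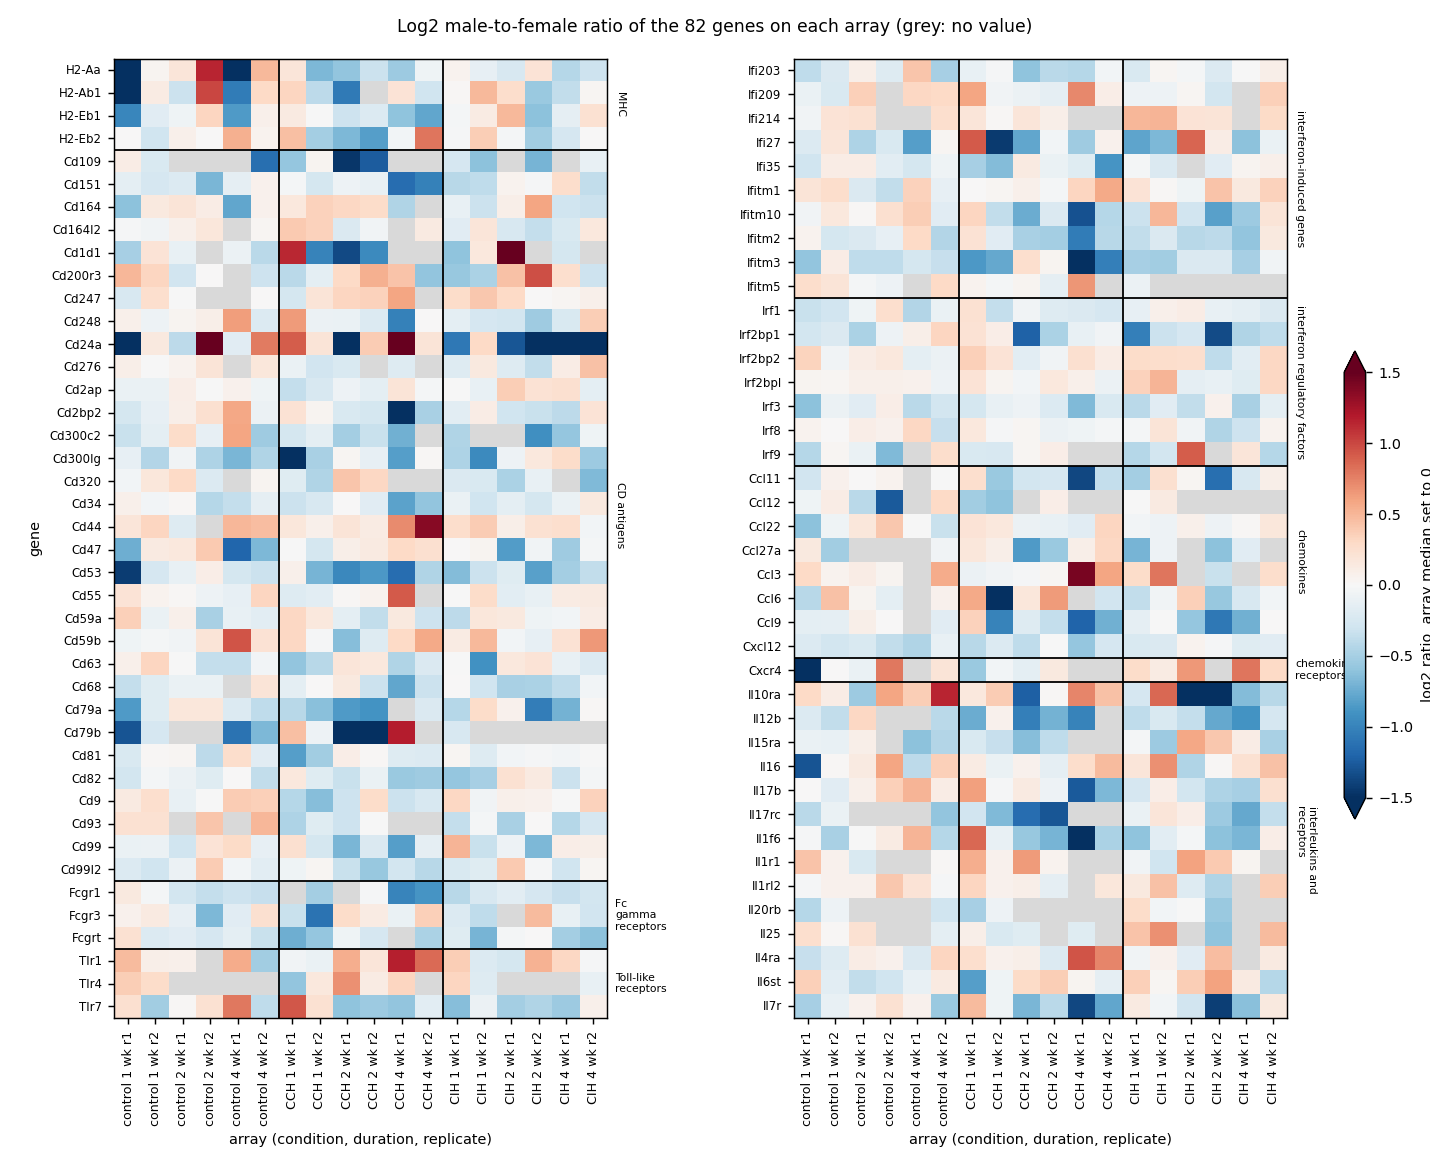
Log2 male-to-female ratio of each of the 82 genes (rows, grouped by class) on each of the 18 arrays (columns, control, CCH and CIH from left to right, each by duration), red above 0, blue below 0, colours saturated at 1.5 in either direction, grey where there was no value. Ifitm3, Cd53 and Cxcl12 are blue on most arrays, H2-Aa, H2-Ab1 and H2-Eb1 are dark blue on control 1 week replicate 1 and control 4 weeks replicate 1, and Cd24a is dark blue on most CIH arrays.

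Among the Fc receptors, Fcgr1, the high-affinity receptor for IgG on monocytes and macrophages, was below 0 on 15 of 16 arrays. It ranged from -0.36 to 0.14 (median -0.29) on the 6 control arrays, was at -0.50, -0.02, -0.99 and -0.88 on the 4 CCH arrays with a value, and ranged from -0.42 to -0.16 (median -0.27) on the 6 CIH arrays. The conditions overlapped, with the 2 CCH arrays of 4 weeks lowest. Its mean over all arrays was -0.32 ± 0.05 (SE, adjusted p = 0.00106, limma), a ratio 1.25-fold below the typical spot. Without the 4-week arrays Fcgr1 no longer passed (-0.22, adjusted p = 0.0525). Fcgrt, the neonatal Fc receptor that spares IgG and albumin from breakdown and is found in endothelium and macrophages, was below 0 on 15 of 17 arrays, at -0.30 ± 0.06 (SE, adjusted p = 0.00235, limma). Its control arrays ran from -0.34 to 0.23 (median -0.19), the 5 CCH arrays were at -0.73, -0.59, -0.07, -0.25 and -0.48, and the CIH arrays ran from -0.69 to 0.01 (median -0.35). Fcgr3, a low-affinity receptor for IgG complexes, ranged from -1.11 to 0.47 on 17 arrays with no call (mean -0.08). The signalling partners of these receptors showed the same sign. Of 4 tested genes of a list of 8, all 4 had means below 0 and 3 passed, with 18.7% of everything tested called below 0: Tyrobp (-0.33, adjusted p = 0.00311) and Fcer1g (-0.28, adjusted p = 0.0147), both adaptor proteins of myeloid receptors, and Syk (-0.21, adjusted p = 0.0287), the kinase that they recruit, all by limma.

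These genes are typical of macrophages. Of the 14 macrophage and monocyte markers listed, 7 were tested, all 7 had means below 0 and 6 passed by limma (background 18.7%). Among these 6 were Tyrobp and Fcer1g, already counted above as signalling partners, so the calls of these lists are not independent. Cd68, a lysosomal protein of macrophages and also a CD antigen here, was another of the 6 (-0.19 ± 0.06 SE, adjusted p = 0.0275, limma, below 0 on 13 of 17 arrays). The call of Cd68 was lost without control 1 week replicate 1 and without each of 5 other arrays, with adjusted p up to 0.0996 over all alternatives. The median of the 7 macrophage markers ran from -0.49 to 0.10 on the control arrays, from -1.12 to -0.10 on the CCH arrays and from -0.60 to -0.16 on the CIH arrays. The part of macrophage content in the ratios of Fcgr1, Fcgrt and Cd68 was not tested.

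Among the interferon-induced genes, Ifitm3 and Ifitm2, whose promoters are printed above, were below 0. Ifitm3 was below 0 on 15 of 18 arrays. It ranged from -0.59 to 0.11 (median -0.36) on control arrays, from -1.54 to 0.25 (median -0.81) on CCH arrays and from -0.52 to -0.05 (median -0.36) on CIH arrays. Its mean of -0.43 ± 0.06 (SE, adjusted p = 0.000319, limma) was the smallest adjusted p of the 66 genes. Its 2 spots differed in size, with means of -0.20 and -0.66. Ifitm2 had a mean of -0.28 ± 0.07 (SE, adjusted p = 0.011, limma) and was below 0 on 14 of 18 arrays. Its 2 spots had means of -0.13 and -0.45, and the call was lost when only the spot with the most values was kept (adjusted p = 0.119) and without the 3 doubted arrays (adjusted p = 0.0592). Ifi35, an interferon-induced leucine zipper protein, was below 0 on 12 of 17 arrays (-0.18 ± 0.06 SE, adjusted p = 0.0461, limma). The call of Ifi35 was not kept without the 3 doubted arrays.

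The other interferon-induced genes did not pass. Ifitm1, of the same family, lay above 0 on 13 of 18 arrays (mean 0.12, adjusted p = 0.103, limma), and Ifitm10 ranged from -1.30 to 0.50. Ifi27 had the widest range of the class, from -1.44 on CCH 1 week replicate 2 to 0.92 on CCH 1 week replicate 1, which are arrays of the same group. Ifi203, Ifi209 and the untested Ifi214 and Ifitm5 stayed between -0.60 and 0.72. In the wider interferon pathway list, 15 of 30 genes were tested, 8 with means above 0 and 7 below. Called above 0 were 5 (background 8.99%): Ifngr2, a chain of the interferon gamma receptor (0.44, adjusted p = 0.00254), Oas1a (0.34, adjusted p = 0.0058) and Mx2 (0.32, adjusted p = 0.0191), antiviral effectors, Tyk2 (0.26, adjusted p = 0.0114), a receptor kinase, and Stat3 (0.15, adjusted p = 0.0483), a transcription factor, all by limma. Isg20, an interferon-induced exonuclease (-0.47, adjusted p = 0.0461), and Bst2, or tetherin (-0.30, adjusted p = 0.026), were the 2 called below 0 (background 18.7%). The interferon genes therefore did not share a sign.

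Of the interferon regulatory factors, Irf3, which switches on type I interferon after sensing of nucleic acids, was below 0 on 16 of 18 arrays. Its values ran from -0.62 to 0.10 (median -0.22) on control arrays, from -0.66 to -0.08 (median -0.22) on CCH arrays and from -0.49 to 0.06 (median -0.27) on CIH arrays, nearly the same range in each condition. Its mean was -0.25 ± 0.06 (SE, adjusted p = 0.00676, limma). The call of Irf3 was lost without the 4-week arrays (-0.19, adjusted p = 0.076) and without the 3 doubted arrays (-0.19, adjusted p = 0.068), both by limma. Irf2bp1, which is not itself such a factor but a nuclear partner of IRF2, was below 0 on 14 of 18 arrays (-0.33 ± 0.08 SE, adjusted p = 0.00801, limma). Its call was not kept without the 3 doubted arrays, where its mean was -0.28. Irf1, a factor of interferon gamma signalling, lay below 0 on 14 of 18 arrays without passing (-0.12, adjusted p = 0.0953, limma). Irf8, Irf2bp2 and Irf2bpl ranged from -0.45 to 0.50, and Irf9, not tested, was between -0.66 and 0.91 on 14 arrays. Spots of Irf1, Irf8, Irf2bp2 and Irf2bpl differed from each other in the sign of their means.

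Chemokines divided by sign. Cxcl12, the stromal chemokine that holds CXCR4-bearing cells, was below 0 on 17 of 18 arrays and on every control array, where it ran from -0.45 to -0.11 (median -0.25). It ran from -0.58 to -0.01 (median -0.32) on CCH arrays and from -0.23 to 0.05 (median -0.18) on CIH arrays. Its mean was -0.23 ± 0.05 (SE, adjusted p = 0.00421, limma). The 4 spots of Cxcl12 all had means below 0, from -0.06 to -0.58, and the call was lost when the spot with the most values, at -0.06, stood for the gene. Ccl9, a macrophage chemokine, was below 0 on 13 of 17 arrays, at -0.34 ± 0.09 (SE, adjusted p = 0.0146, limma). The call of Ccl9 was lost without the 4-week arrays (adjusted p = 0.0923) and without the 3 doubted arrays (adjusted p = 0.0942). Ccl3, an inflammatory chemokine of macrophages, was above 0 on 11 of 15 arrays at 0.25 ± 0.08 (SE, adjusted p = 0.0342, limma). Its highest value was 1.43 on CCH 4 weeks replicate 1. The call was lost under 12 of 26 alternatives, including the removal of any of 9 single arrays, with adjusted p of up to 0.52.

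Cxcr4, the receptor of Cxcl12 and the only chemokine receptor with enough values, could not be tested. Its value was -2.44 on control 1 week replicate 1, against -0.55 to 0.81 on the other 13 arrays that held it. Ccl6 ranged from -2.17 to 0.64, with its lowest value on CCH 1 week replicate 2 and 0.57 on the other array of that group. Ccl11 ran from -1.36 to 0.25 and Ccl22 from -0.62 to 0.40, with no call. Ccl12 and Ccl27a were not tested and ran from -1.26 to 0.31.

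Among interleukins and their receptors, Il12b, the shared subunit of IL-12 and IL-23, was below 0 on 13 of 15 arrays, at -0.45 ± 0.08 (SE, adjusted p = 0.00337, limma). It was at -0.21, -0.37, 0.31 and -0.41 on the control arrays with a value, at -0.74, 0.06, -1.03, -0.71 and -1.003 on the CCH arrays, and between -0.89 and -0.23 (median -0.37) on the CIH arrays. The 4 lowest CCH values lay below every control value and the CCH value of 0.06 did not. Il7r, the IL-7 receptor of lymphocytes, was below 0 on 12 of 18 arrays (-0.32 ± 0.09 SE, adjusted p = 0.0153, limma), with its lowest values of -1.42 on CIH 2 weeks replicate 2 and -1.36 on CCH 4 weeks replicate 1. Without the 4-week arrays Il7r no longer passed (-0.22, adjusted p = 0.134, limma), nor did it without the 3 doubted arrays. The other 8 tested genes of the class did not pass. Il6st, the signalling chain shared by IL-6 family receptors, had a mean of 0.016 and ran from -0.83 to 0.61, with spots that differed in sign. Downstream, Stat5a (-0.25, adjusted p = 0.0122) and Stat6 (-0.19, adjusted p = 0.0398) passed, 2 of 7 tested genes of the cytokine and chemokine signalling list (background below 0 18.7%), of which 5 had means below 0.

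The Toll-like receptors gave no call. Tlr1, a receptor for bacterial lipoproteins, lay above 0 on 11 of 17 arrays (0.22 ± 0.09 SE, adjusted p = 0.07, limma), with 1.16 and 0.85 on the 2 CCH arrays of 4 weeks. Tlr7, a sensor of single-stranded RNA, ran from -0.64 to 0.94, and Tlr4, the receptor of lipopolysaccharide, was not tested and ran from -0.59 to 0.69 on 10 arrays. Of 11 tested genes of the Toll-like receptor signalling list, 9 had means below 0 and 2 above. Called below 0 were 2, a share near the background of 18.7%, and called above 0 were none (background 8.99%). The called genes were Rela, a subunit of NF-kB (-0.38, adjusted p = 0.00401), and Nfkbia, its inhibitor (-0.21, adjusted p = 0.0257), both by limma.

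CD antigens made up the largest class, with 27 tested genes, of which 7 had means above and 20 below 0. Called above 0 was 1 (background 8.99%) and called below 0 were 8 (background 18.7%). Cd53, a tetraspanin of leukocytes, had the lowest mean of all 66 genes at -0.51 ± 0.09 (SE, adjusted p = 0.00116, limma) and was below 0 on 16 of 18 arrays. It ran from -1.43 to 0.10 (median -0.26) on control arrays, from -1.14 to 0.08 (median -0.78) on CCH arrays and from -0.82 to -0.18 (median -0.44) on CIH arrays. The value of -1.43 belongs to control 1 week replicate 1, and without that array the mean was -0.44 with the call kept. All 3 spots of Cd53 had means below 0, from -0.86 to -0.33. Cd79a, the signalling chain of the B cell receptor, was below 0 on 12 of 17 arrays (-0.35 ± 0.09 SE, adjusted p = 0.0121, limma), a call lost without the 3 doubted arrays. Cd300lg, an endothelial receptor (-0.38, adjusted p = 0.00736), and Cd300c2, a myeloid receptor (-0.35, adjusted p = 0.015), were also below 0.

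Further down, Cd151, a tetraspanin that binds integrins, was below 0 on 15 of 18 arrays (-0.27 ± 0.05 SE, adjusted p = 0.00361, limma). Cd34, a surface protein of endothelium and progenitor cells (-0.21, adjusted p = 0.00803), and Cd82, a tetraspanin (-0.20, adjusted p = 0.0111), each lay below 0 on 14 of 18 arrays. The call of Cd34 was lost with the spot with the most values (-0.14, adjusted p = 0.145, limma). It was also lost without the 4-week arrays (-0.16, adjusted p = 0.0859, limma). The other tetraspanins did not pass: Cd9 was at 0.00, Cd63 at -0.14 (adjusted p = 0.0965) and Cd81 at -0.13 (adjusted p = 0.0664), all by limma. Cd44, the hyaluronan receptor of activated lymphocytes and stromal cells, was the CD antigen called above 0. It was above 0 on 15 of 17 arrays, with 0.71 and 1.36 on the 2 CCH arrays of 4 weeks and between -0.19 and 0.50 elsewhere. Its mean was 0.27 ± 0.06 (SE, adjusted p = 0.00438, limma), and the call was lost without the 4-week arrays (0.14, adjusted p = 0.119).

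**Figure D2:**
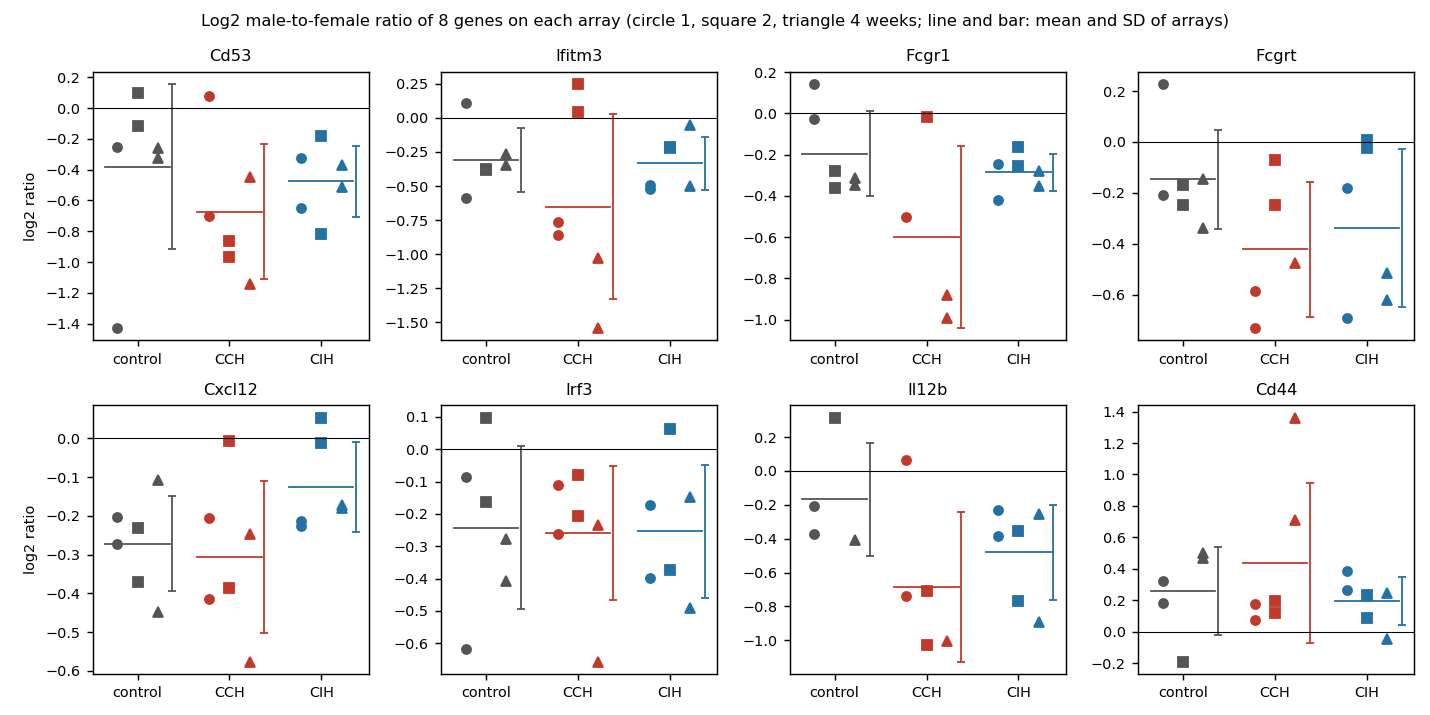
Log2 male-to-female ratio (vertical axis, scale differs between panels) of 8 genes on each array with a value, by condition and duration (circles 1 week, squares 2 weeks, triangles 4 weeks). Horizontal lines are means over the arrays of a condition and bars their SD. Cxcl12 is below 0 on 17 of 18 arrays, Cd44 is above 0 on 15 of 17, and the 2 CCH arrays of 4 weeks hold the lowest values of Fcgr1 (-0.99 and -0.88) and Ifitm3 (-1.54 and -1.03).

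The MHC genes with enough values were all of class II, namely the alpha chain H2-Aa and the beta chains H2-Ab1, H2-Eb1 and H2-Eb2. None passed against 0 (means -0.24, -0.23, -0.19 and -0.05, smallest adjusted p 0.115 for H2-Eb1, limma). Their spread among control arrays was wide. H2-Aa stood at -1.54 on control 1 week replicate 1, -1.72 on control 4 weeks replicate 1 and 1.15 on control 2 weeks replicate 2, with the other 3 control arrays between 0.04 and 0.49. H2-Ab1 stood at -1.71, -1.05 and 1.00 and H2-Eb1 at -0.98, -0.85 and 0.32 on the same 3 arrays. So the same 2 control arrays were low, and the same 1 was high, for 3 of the 4 genes. H2-Eb2 did not follow them, at 0.00, 0.53 and 0.00 there.

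The SD of H2-Aa was 1.15 over the 6 control arrays, 0.34 over the 6 CCH arrays and 0.24 over the 6 CIH arrays. That of H2-Ab1 was 0.98 (n = 6), 0.55 (n = 5) and 0.39 (n = 6), and that of H2-Eb1 was 0.52, 0.35 and 0.38. These SDs are given as values, without a test. Averaging over the 3 CCH groups gave H2-Aa -0.34, H2-Ab1 -0.38 and H2-Eb1 -0.30, none of them called. In the antigen processing list outside these prefixes, 12 of 21 genes were tested, 7 with means above 0 and 5 below, and 3 passed (background 27.7%). Psmb8, an inducible subunit of the immunoproteasome (0.30, adjusted p = 0.00243), and Tapbp, or tapasin (0.29, adjusted p = 0.0151), were called above 0. B2m, the light chain of class I molecules (-0.28, adjusted p = 0.0211), was called below 0, all by limma.

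B cell and other lymphocyte genes were low on control 1 week replicate 1 as well. Cd79a was at -0.85 there and Cd79b, its partner chain, at -1.30. Il16, a cytokine of lymphocytes, was at -1.29 there, with -0.45 to 0.68 elsewhere. Cxcr4 and Cd53 had their lowest values there too, as given above. On control 4 weeks replicate 1 Cd79b was at -1.11 and Cd79a at -0.21, and on control 2 weeks replicate 2 Cd79a was at 0.17. On CCH 2 weeks replicate 1 and replicate 2 Cd79b was at -1.95 and -1.77, and every class II value was below 0. H2-Aa was at -0.59 and -0.32 there, H2-Eb1 at -0.32 and -0.20, H2-Eb2 at -0.67 and -0.82, and H2-Ab1 at -1.06 on the first, with no value on the other. Cd79b was at 0.45 and -0.08 on the CCH arrays of 1 week and at 1.17 on CCH 4 weeks replicate 1. Its 2 spots, on 9 and 6 arrays, had means of -0.97 and 0.27. Of 6 B cell markers listed 2 were tested, and both were called below 0 (background 18.7%). They were Cd79a and Ms4a1 (-0.22, adjusted p = 0.0483, limma). The lung marker median ran from -0.84 to 0.07 on control arrays, from -0.42 to 0.70 on CCH arrays and from -2.44 to -0.06 on CIH arrays. On CIH 4 weeks replicate 2, the array of the -2.44, H2-Aa was at -0.31, H2-Ab1 at 0.02 and H2-Eb1 at 0.23. H2-Eb2 was at 0.00 and Cd79a at 0.02 on that array. Of the 10 T cell markers listed only Cd247, also a CD antigen here, had enough values (mean 0.16, adjusted p = 0.0883, limma). No dendritic cell or thymus marker had a value on 9 arrays. The part of lymphocyte or lung content in the class II values was not tested.

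**Figure D3:**
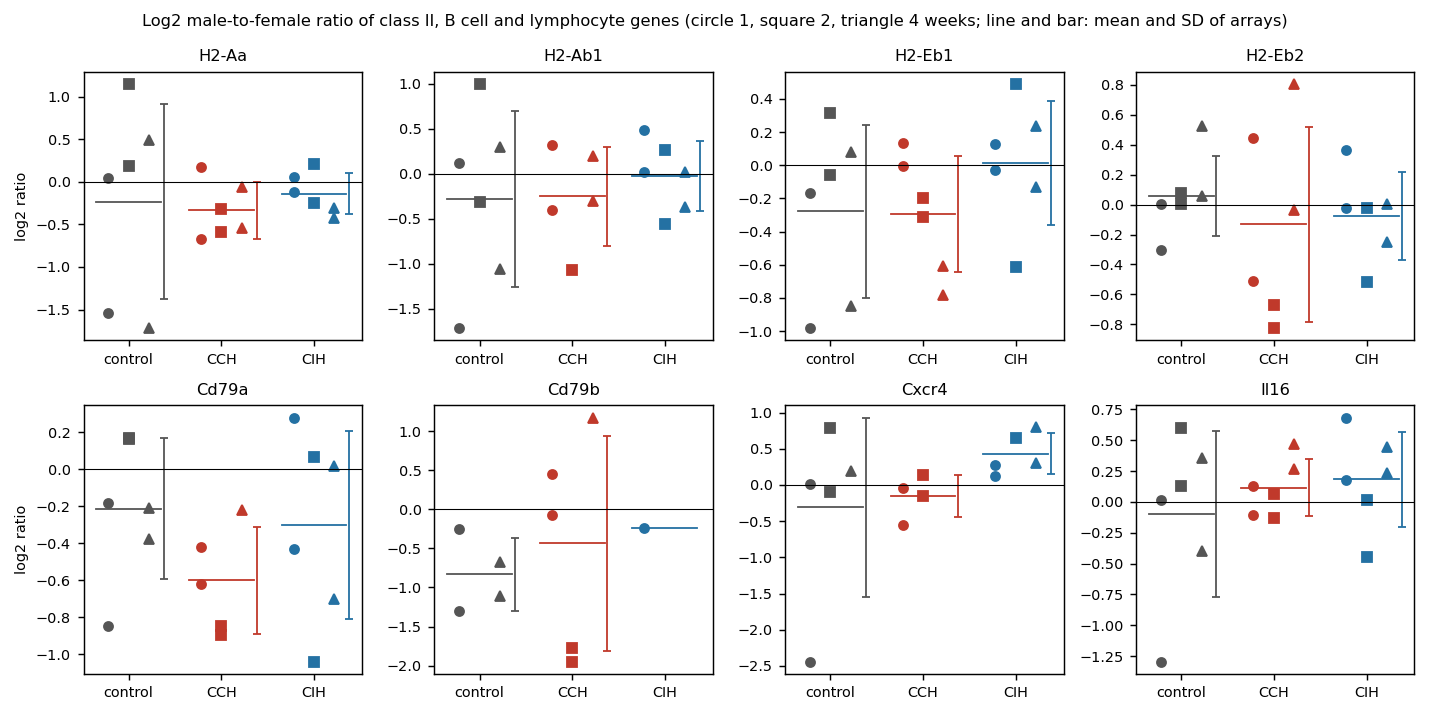
Log2 male-to-female ratio (vertical axis, scale differs between panels) of the 4 class II genes, the B cell receptor chains Cd79a and Cd79b, Cxcr4 and Il16 on each array with a value (symbols for duration, line and bar for mean and SD). Control 1 week replicate 1 holds the lowest control value of H2-Ab1 (-1.71), H2-Eb1 (-0.98), Cd79a (-0.85), Cd79b (-1.30), Cxcr4 (-2.44) and Il16 (-1.29), while H2-Eb2 is at 0.00 there.

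Taken by condition, the ratios of the control arrays alone gave 0 calls against 0 by limma, with a background of 0.00974% called. At an unadjusted p under 0.05 there were 8 of the 66 genes (12.1%, against 9.15% of everything tested). The leading genes were Cxcl12 (-0.27 ± 0.09 SE, adjusted p = 0.338, below 0 on 6 of 6 arrays), Ifitm3 (-0.31, adjusted p = 0.379) and Cd53 (-0.38, adjusted p = 0.454). The CCH arrays gave 13 calls (19.7%, background 10.8%), 12 below 0 (background 7.89%) and 1 above (background 2.89%). Below 0 were Il12b at -0.74, Cd53 at -0.67, Ifitm3 at -0.65, Ccl9 at -0.52, Cd300lg at -0.51, Fcgr1 at -0.49, Cd151 at -0.44 and Fcgrt at -0.43, followed by Ifitm2, Ifi35, Cd34 and Cxcl12, and above 0 was Cd44 at 0.44. The adjusted p of these calls ran from 0.00291 for Ifitm3 to 0.0485 for Cd300lg. The number rested on several arrays: it was 2 without CCH 2 weeks replicate 1 or without CCH 2 weeks replicate 2, 4 without CCH 1 week replicate 2 or without CCH 4 weeks replicate 1, and 8 without control 2 weeks replicate 1. It was 0 when the 4-week arrays were left out, and Ifitm3 alone was kept in each of the 18 fits that leave out 1 array.

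The CIH arrays gave 8 calls (12.1%), all below 0, against a background of 12.1% in either direction, 8.37% below and 3.73% above 0. They were Cd24a at -1.45, Il10ra and Irf2bp1 at -0.63 each, Il12b and Cd53 at -0.48 each, Fcgrt at -0.34, Ifitm3 at -0.33 and Fcgr1 at -0.29, with adjusted p from 0.0113 to 0.0482 by limma. Their number was 0 without CIH 1 week replicate 1, without CIH 2 weeks replicate 2 or without CIH 4 weeks replicate 1, and 0 without the 3 doubted arrays. It was 3 without CIH 1 week replicate 2, and 5 without CIH 2 weeks replicate 1, without CCH 2 weeks replicate 2 or without control 2 weeks replicate 1. Whether a gene called in one condition and not in another differed between them is answered only by the comparisons that follow.

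**Figure D4:**
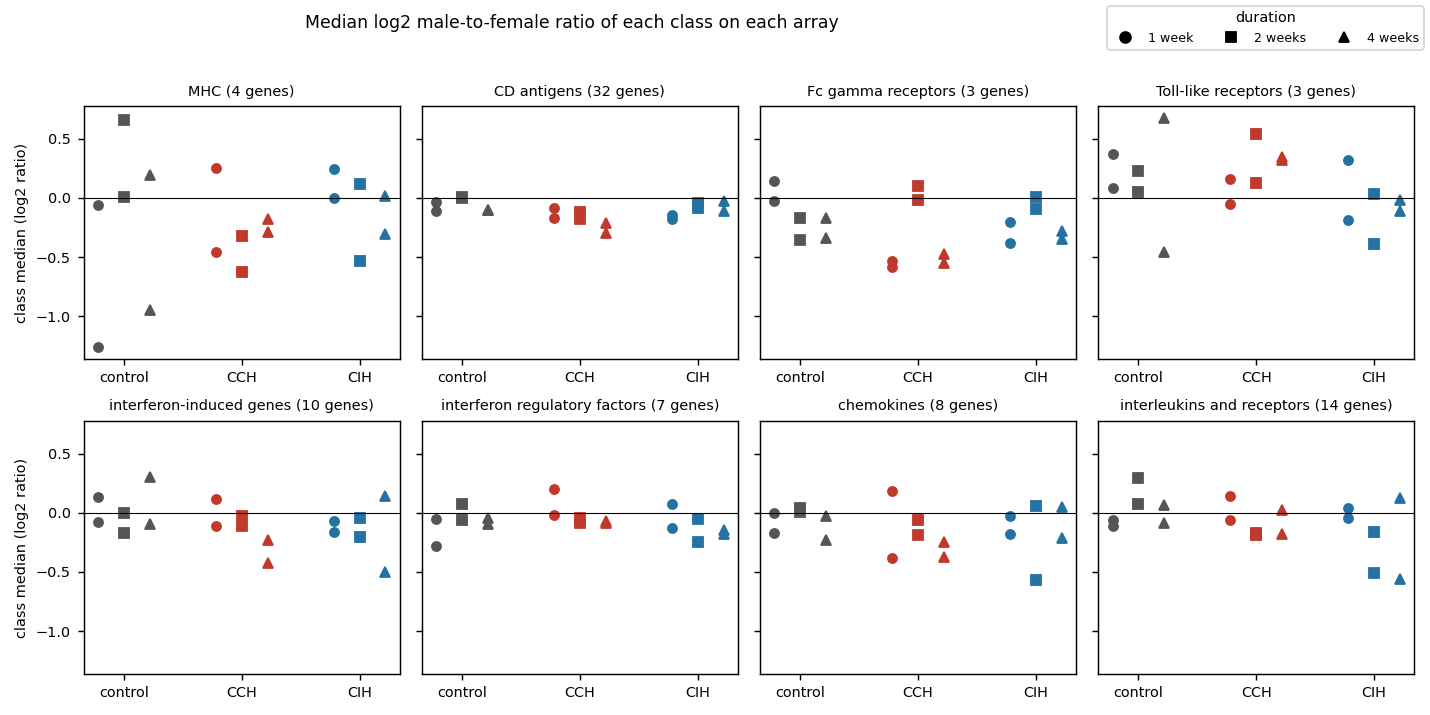
Median log2 male-to-female ratio of each class with at least 3 genes (vertical axis, shared scale) on each of the 18 arrays, by condition and duration. The CD antigen median is below 0 on 17 of 18 arrays and lowest on CCH 4 weeks replicate 1 (-0.29), the Fc gamma receptor median is lowest on CCH arrays (-0.59 to 0.10), and the MHC median is spread widest on control arrays (-1.26 to 0.66).

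Constant hypoxia against control, averaged over the 3 durations, gave 0 calls among the 66 genes by limma, with 8 at an unadjusted p under 0.05 (12.1%, against 6.32% of everything tested) and a background of 0% called. In simulated data of this comparison, 79% of genes changed by 1 on the log2 scale were called and 11% of those changed by 0.5. Of the unchanged, 6 were called. The simulated arrays were independent and equal in spread, unlike the real arrays, so these shares need not hold for the real data. The median difference was -0.14, against -0.04 for everything tested. Cd9, a tetraspanin, led with -0.44 ± 0.13 (SE, 95% interval -0.72 to -0.16, adjusted p = 0.699): it ran from -0.12 to 0.39 (median 0.20) on control arrays and from -0.63 to 0.28 (median -0.32) on CCH arrays. The 2 spots of Cd9 had means of 0.12 and -0.13 over all arrays. Il12b was at -0.61 (95% interval -1.08 to -0.14) and Ifitm10 at -0.55 (-1.01 to -0.08). Above 0 were Cd47, the signal that spares cells from phagocytosis, at 0.40 (0.02 to 0.78), and Il4ra, the receptor of IL-4 and IL-13, at 0.36 (0.05 to 0.67), each with adjusted p = 0.749, and Cd44 at 0.26. Spots of Cd47 and of Il4ra differed in the sign of their means. The arrays of CCH and control did not overlap for 1 gene, Cd276, an inhibitory ligand of the B7 family, with CCH below (background 0.185%). It was at -0.10, -0.29, -0.23 and -0.19 on CCH arrays and between -0.0015 and 0.20 on 5 control arrays.

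The difference between CCH and control was also taken at each duration. The test for a change with duration, given at the end of this paragraph, had 0 calls. At 4 weeks 17 of 66 genes had an unadjusted p under 0.05 (25.8%, against 15.1% of everything tested), with 0 calls after adjustment (background 0%, smallest adjusted p 0.111). Cd151 was at -1.14 and -1.01 on the CCH arrays and at -0.14 and 0.06 on the control arrays of 4 weeks, a difference of -1.04 ± 0.23 (SE, adjusted p = 0.111, limma). Ifitm3 was at -1.54 and -1.03 against -0.27 and -0.34, a difference of -0.98 (adjusted p = 0.131, limma). Il17b, a cytokine of the IL-17 family, was at -1.26 and -0.68 against 0.51 and 0.11, a difference of -1.27 (adjusted p = 0.114, limma). Cd47 differed by 1.21 (adjusted p = 0.132, limma), from -1.19 and -0.67 on the control arrays to 0.30 and 0.25 on the CCH arrays. These 4 genes are named for their values at 4 weeks. That their CCH arrays of 4 weeks lay on 1 side of the control arrays is therefore no separate result. How often this holds among everything tested was not counted. The CCH arrays of 2 weeks did not have such low values: Ifitm3 was at 0.25 and 0.04 and Cd151 at -0.08 and -0.11. At 1 week, Cd9 differed by -0.72 and Fcgrt by -0.67 (adjusted p = 0.711 each, limma), with 0 calls (background 0%). At an unadjusted p under 0.05 there were 9 genes (13.6%, against 6.15% of everything tested). At 2 weeks Il12b differed by -1.18 and Cd79a by -1.04 (adjusted p = 0.498 each, limma), with 0 calls (background 0.0195%). At an unadjusted p under 0.05 there were 6 genes (9.09%, against 9.38% of everything tested). The test of whether the hypoxia effect changed with duration gave 0 calls by limma and 13 genes at an unadjusted p under 0.05 (19.7%, against 12.8% of everything tested, background 0% called), led by Cd151, Ifitm3 and Il17b, each with adjusted p = 0.381.

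Intermittent hypoxia against control, averaged over the durations, gave 0 calls by limma, with 4 genes at an unadjusted p under 0.05 (6.06%, against 12.7% of everything tested) and a background of 0.00974% called. The median difference was -0.02. Il10ra, the IL-10 receptor chain of leukocytes, had the largest drop relative to its error, at -0.96 ± 0.25 (SE, adjusted p = 0.0773). Il10ra ran from -0.54 to 1.14 (median 0.33) on control arrays and from -1.65 to 0.86 (median -0.53) on CIH arrays, with -1.65 on both CIH arrays of 2 weeks. It passed with the replicate letter as a block (adjusted p = 0.0384), and without control 2 weeks replicate 1, CCH 2 weeks replicate 1, CCH 2 weeks replicate 2 or CIH 1 week replicate 2 (adjusted p from 0.0245 to 0.038). Over all single-array removals its adjusted p ran from 0.0245 to 0.309. Cd24a differed by -1.39 ± 0.51 (SE, adjusted p = 0.256) and Irf2bp1 by -0.52 (adjusted p = 0.261). Il6st at 0.25, H2-Eb1 at 0.29 and Il16 at 0.28 led on the positive side. Without control 1 week replicate 1 the value of Il16 was 0.06. CIH and control arrays overlapped for all 66 genes (background 0.438%).

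Cd24a, a small surface protein of immature B cells, granulocytes and red cell precursors, had the widest range of the 66 genes, from -2.62 to 1.83, and its 4 spots had means of -0.50 to -0.26. It was at -1.07, 0.30, -1.28, -2.62, -2.12 and -1.90 on the CIH arrays in order of duration. It ran from -2.27 to 1.53 (median -0.01) on control arrays and from -1.87 to 1.83 (median 0.29) on CCH arrays. The median of 5 tested red cell markers, Alas2, Slc4a1, Ermap, Fech and Klf1, ran from -0.22 to 0.75 on control arrays, from -1.66 to 0.88 on CCH arrays and from -2.19 to -0.03 on CIH arrays. The array with the lowest Cd24a, CIH 2 weeks replicate 2, was also the one with the lowest red cell median. On the CCH arrays both were lowest on CCH 2 weeks replicate 1 (-1.87 and -1.66) and highest on CCH 4 weeks replicate 1 (1.83 and 0.88). Il10ra was at -1.23 and 0.73 on those 2 arrays. On the control arrays Cd24a and the red cell median were not lowest together. Cd24a was at -2.27 on control 1 week replicate 1, where the red cell median was -0.18 and Il10ra 0.30. The lowest red cell median among controls was -0.22, on control 2 weeks replicate 1, where Cd24a was at -0.39. The part of red cell content in the ratios of Cd24a and Il10ra was not tested.

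**Figure D5:**
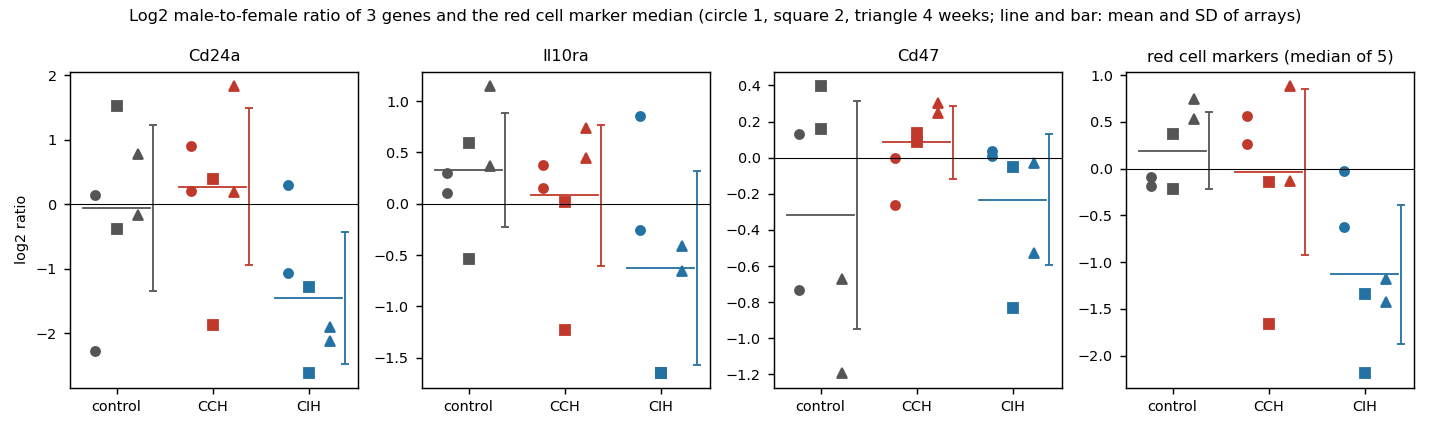
Log2 male-to-female ratio (vertical axis, scale differs between panels) of Cd24a, Il10ra and Cd47, and the median of 5 red cell markers, on each array with a value (symbols for duration, line and bar for mean and SD). On CIH arrays the red cell median lies between -2.19 and -0.03 and Cd24a between -2.62 and 0.30.

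Constant against intermittent hypoxia gave 0 calls by limma, with 5 genes at an unadjusted p under 0.05 (7.58%, against 9.28% of everything tested) and a background of 0.00974% called. CCH minus CIH was 1.72 ± 0.51 for Cd24a (SE, 95% interval 0.64 to 2.81, adjusted p = 0.193) and 0.71 for Il10ra (adjusted p = 0.331). Cd24a passed when CCH 2 weeks replicate 1 was left out (2.10, adjusted p = 0.044). Cd9 was at -0.40 (adjusted p = 0.264), and Cd151 and Ifitm3 at -0.30 and -0.32 (adjusted p = 0.523 each). Without the 4-week arrays the last 2 turned to 0.069 and 0.029. No gene had CCH and CIH arrays that did not overlap (background 0.0876%). The comparisons with control share the control arrays, and the comparisons of CCH and CIH share theirs, so their values are not independent.

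Duration, averaged over the 3 conditions, gave 0 calls for 4 weeks minus 1 week by limma (6 genes at an unadjusted p under 0.05, 9.09%, against 9.61% of everything tested, background 0% called). Cd55, or decay-accelerating factor, which limits complement, was at 0.35 (adjusted p = 0.402). Its highest value was 0.91, on CCH 4 weeks replicate 1. Il4ra was at 0.38, Cd44 at 0.31, Il7r at -0.50, Fcgr1 at -0.27 and Il17b at -0.31. From 1 to 2 weeks there were 0 calls by limma and 5 genes at an unadjusted p under 0.05 (7.58%, against 21.7% of everything tested, background 0.00974% called). Il10ra was at -1.002 ± 0.25 (SE, adjusted p = 0.0885), and passed without CCH 2 weeks replicate 2 (-1.21, adjusted p = 0.0243). Cd300lg was at 0.60 (adjusted p = 0.153), Cd200r3 at 0.45 and Ifitm3 at 0.37. Within controls 1 gene, Cd59b, an inhibitor of the complement membrane attack complex, had an unadjusted p under 0.05 for 4 minus 1 week (0.63, adjusted p = 0.936, limma). That was 1.52% of the genes, against 4.47% of everything tested, with 0 calls and a background of 0% called. Within the hypoxia arrays 8 genes had an unadjusted p under 0.05 (12.1%, against 13% of everything tested), led by Cd55 (0.54, adjusted p = 0.295, limma). There were 0 calls there, with a background of 0% called.

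The remaining genes gave no call in these comparisons. Cd2ap, Cd2bp2, Cd99, Cd99l2, Cd164, Cd164l2, Cd200r3, Cd247, Cd248, Cd59a and Cd59b ran from -1.59, for Cd2bp2 on CCH 4 weeks replicate 1, to 0.97, for Cd200r3 on CIH 2 weeks replicate 2. Il1f6, Il1rl2 and Il25 ran from -1.53 to 0.86. The untested Cd1d1, Cd93, Cd109 and Cd320 ran from -1.46 to 2.22, the highest value of all 82 genes, for Cd1d1, which presents lipids to T cells, on CIH 2 weeks replicate 1. The untested Il1r1, Il15ra, Il17rc and Il20rb ran from -1.29 to 0.64. Of 33 genes with at least 2 spots on 9 or more arrays, the means of the spots shared a sign in 19 and differed in 14, by up to 0.64 for Irf8.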

How the data were processed

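Each array's deposited column gives, per spot, the log2 ratio of male (Cy5) to female (Cy3) signal. The authors' scaling left a mean linear ratio of 1 on each array, from which base 2 was settled. Background correction, spot filter, normalization and direction are not given in the sources used here, and the direction was inferred from Eif2s3y. Of 28704 spots 18511 carried 1 symbol, 937 several (not used for genes) and 9256 none. Arrays were centred on their median and spots of 1 symbol averaged. Where spots have gaps, the averaged spots differ between arrays.

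A unit was tested with a value in each of the 9 groups, which gave 10272 units and 66 of the 82 genes. The model of 9 group means, with gaps solved exactly per unit, used the variance moderation of limma 3.58.1 in R 4.3.3 (two-sided, prior SD 0.269 on 5.95 degrees of freedom), p-values adjusted by Benjamini-Hochberg over all units and a threshold of 0.05. It was tested on simulated data. Whether both arrays of a group hold separate animals is not stated. The p-values therefore measure only array-to-array spread, which may be technical. The number of arrays limits the precision. The A and B letters of the titles were checked as pairs: of 36 correlations of deviations between same-letter arrays, 15 were over 0.1 (range -0.55 to 0.45), so they do not pair the arrays. Arrays correlated with each other from -0.53 to 0.74 over all units, and within groups from -0.04 to 0.69.

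The rule for named genes took up to 12 called genes per direction for all arrays and 8 elsewhere, filled to 3 by the smallest p, and a list of 31 genes, of which 17 were among the 82. H2-K1, H2-D1, H2-DMa, Cd74, Cd14, Cd3e, Ccl2, Irf7, Ifit1, Ifit3, Ifi30, Tlr2, Il6 and Il1b are not analysed here. Cd276, Ifi27, Ccl6, Cd79b, Cd1d1 and other single values were named after they were seen. The symbol rule used no ratio, but the rule, the lists and the tests were chosen with earlier results of these data known. Promoter sequences are RefSeq's, the first window per symbol. Figures were drawn with matplotlib 3.10.9.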

Additional observations from a re-analysis of the deposited data

Results flagged for a closer look

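In each group of 4 to 6 arrays of 1 condition, the highest or lowest value was set against the others by Dixon's gap ratio. Of 150 groups 11 stood out, where chance gives about 1 in 20. On control 1 week replicate 1 Cd53 was at -1.43 (others -0.33 to 0.10) and Fcgrt at 0.23 (others -0.34 to -0.14). Cd59b was at 0.95 on control 4 weeks replicate 1, above the other controls by more than their spread. On CCH 1 week replicate 1 the median of the interferon regulatory factors was 0.20, that of all 82 genes 0.085 and Il25 0.085, each above the other CCH arrays. On CCH 4 weeks replicate 1 Cd55 was at 0.91 and Irf3 at -0.66. Il10ra was at -1.23 on CCH 2 weeks replicate 1. On CIH 1 week replicate 2 Cd63 was at -0.91 and Cd81 at -0.19, both below the other CIH arrays.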

How the results depend on the processing

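Over all arrays, Cd53, Ifitm3 and Cd300lg kept their calls under every alternative run, and Il12b, Cd300c2 and Fcgrt under every one that could test them. Ifi35, Cd82 and Cd151, also called over all arrays, were counted under the alternatives but not followed gene by gene. The 21 calls became 11 of 41 among genes on all 18 arrays, 13 without the 4-week arrays, 10 without the 3 doubted arrays (chosen after seeing the data) and 17 to 26 without single arrays. Control arrays gave 1 call, Cxcl12, with quantile normalization, and 0 without any single array. The 13 CCH calls became 3 with arrays scaled to a common spread, 24 without centring, 7 among genes on all 18 arrays, 23 with array weights, 8 in the additive model, 21 with CIH 1 week replicate 1 grouped as CCH 2 weeks, 0 without the 4-week arrays and 2 to 17 without single arrays. The 8 CIH calls became 1, 5, 3, 1 and 4 with scaling, genes on all 18 arrays, the additive model, that regrouping and without the 4-week arrays, 0 without the 3 doubted arrays and 0 to 11 without single arrays. With the replicate letter as a block, CIH minus control had 1 call (Il10ra) in place of 0, Cd300lg in the CCH arrays (adjusted p = 0.06) and Cd53 in the CIH arrays (adjusted p = 0.0546) were lost, and the other counts stayed within 1.5 times. Without single arrays CIH minus control, CCH minus CIH and 2 weeks minus 1 week ran from 0 to 1, and CCH minus control, 4 weeks minus 1 week and the test by duration stayed at 0. Signs turned for CCH minus CIH of Cd151 (0.069) and Ifitm3 (0.029) without the 4-week arrays. The near-zero mean of Cd9 became -0.027 with quantile normalization, -0.046 without centring, -0.0034 with the regrouping, -0.036 without the 4-week arrays and -0.028 to 0.038 without single arrays. That of Il6st became -0.054 with quantile normalization, -0.022 with scaling, -0.035 without centring, -0.0014 with the regrouping, -0.062 without the 3 doubted arrays and -0.027 to 0.058 without single arrays. Without centring or with quantile normalization the median of everything tested was -0.09 in place of -0.04. Fewer samples or genes are tested where arrays are left out, and otherwise the cause was not tested. Signal over background was not used here.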
